A study of Mus musculus with 10 samples.

Results

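The cytochrome P450 genes described here are the mouse Cyp1, Cyp2, Cyp3 and Cyp4 genes, apart from the Cyp2a and Cyp2b subfamilies. They were chosen by symbol, with a mean of at least 10 counts over the 10 livers of the series. Of 24537 gene symbols in the count table, 76 had such a name and 55 reached that minimum. The 21 below it included 7 without a count in any liver. The nearest genes below the minimum were Cyp2s1, with a mean of 8.5 counts, and Cyp2d34, with 7.7 counts. The nearest above it were Cyp3a16, with 34.7 counts, and Cyp1a1, with 35.1 counts. The 55 genes belong to 15 subfamilies, of which Cyp2c (13 genes), Cyp2d (9), Cyp3a (8), Cyp4a (6) and Cyp4f (6) are the largest. Together they took between 1.70% and 2.19% of all counts in a liver.

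Cytochromes P450 are haem enzymes of the endoplasmic reticulum that insert an oxygen atom into their substrates with electrons passed on by the reductase Por. In hepatocytes, enzymes of the Cyp1 to Cyp3 families oxidise drugs, other foreign compounds and steroids, and many of their genes respond to the receptors Ahr, CAR and PXR. Cyp4 enzymes mostly hydroxylate the far end of fatty acids and eicosanoids, and several Cyp4a genes respond to the fatty acid receptor Ppara. Growth hormone sets male and female patterns for several of these genes in the mouse liver.

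RNA was sequenced from whole livers of 10 male mice, whose strain the labels do not give. All of them had received an adeno-associated virus of serotype 8 that expresses the Cas9 of Staphylococcus aureus from the hepatocyte promoter TBG together with a U6-driven guide, so that controls and knockouts alike carried virus and Cas9. The young group was 3 Rosa26-KO mice (guide to the Rosa26 locus), aged 9 months and injected at 7 months. The old control group was 3 Rosa26-KO mice aged 25 months and injected at 23 months. The old knockout group was 4 Cd44-KO mice of the same ages, 2 with guide 4 (g4) and 2 with guide 2 (g2). Cd44 encodes a cell surface receptor, and the TBG promoter leaves Cd44 of the other liver cells untouched by design.

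Total counts lay between 15821198 and 21710228 per liver, and the 9 hepatocyte marker genes examined were detected in every group, with a summed level of 101691 to 155596 CPM (counts relative to the library total, scaled with TMM factors). The targeted gene does not separate knockout from old control livers: Cd44 had 16.6, 11.1 and 10.1 CPM in young, 14.2, 29.99 and 25.9 CPM in old control, 18.9 and 29.01 CPM in guide 4 and 17.6 and 13.1 CPM in guide 2 livers. Knockout directions below therefore rest on the labels. Both guide 4 livers were above both guide 2 livers for Cd44 (log2 fold change 0.64, SE 0.36, not called). Old control replicate 3 bears a library name outside the run of the others, and it was the highest of all 10 livers for 13 of the 55 genes. Old control replicate 1 was the lowest of all for 15. Over the 55 genes the median coefficient of variation was 16.3% in young, 32.8% in old control and 20.7% in knockout livers, against 12.2%, 22.4% and 13.4% over all genes tested.

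Between old and young control livers, 10 of the 55 P450 genes changed (18.2%), 3 higher and 7 lower in old livers. Called means an adjusted p below 0.05 (edgeR, quasi-likelihood, Benjamini-Hochberg) over the 13909 genes that passed the low-count filter, which all 55 did. Over all genes 22.8% were called, 14.1% higher and 8.66% lower, so the share among the P450 genes was near the background. At an unadjusted p under 0.05 there were 18 of 55, against 38.5% of all genes. The genes that fell were the fatty acid hydroxylases Cyp4a12a and Cyp4a12b and the xenobiotic and steroid enzymes Cyp2c29, Cyp2d9, Cyp2d11, Cyp2d40 and Cyp2f2. Those that rose were Cyp4b1, Cyp4f16 and Cyp4f18. The median log2 fold change of the 55 genes was -0.23 against 0.04 over all genes, with 17 values above 0 and 38 below. Old and young livers did not overlap for 4 genes that were higher and 16 that were lower in old livers, against 37.7% of all genes (19.7% higher and 18% lower).

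These figures depend on scaling and on single livers. With total counts in place of TMM factors, the median of all genes moved by 0.31 on the log2 scale, 32 of the P450 values were above 0, and the calls were 4 higher and 3 lower. Under TMM factors, DESeq2's size factors and total counts alike, 41 of the 55 genes lay below the median of all genes. The number of calls was 22 without old control replicate 3, 6 without young replicate 3, 3 without old control replicate 2 and 2 without young replicate 2. The shares of all genes called in these alternatives are not reported here, so the counts do not set P450 genes apart from other genes.

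**Figure D1:**
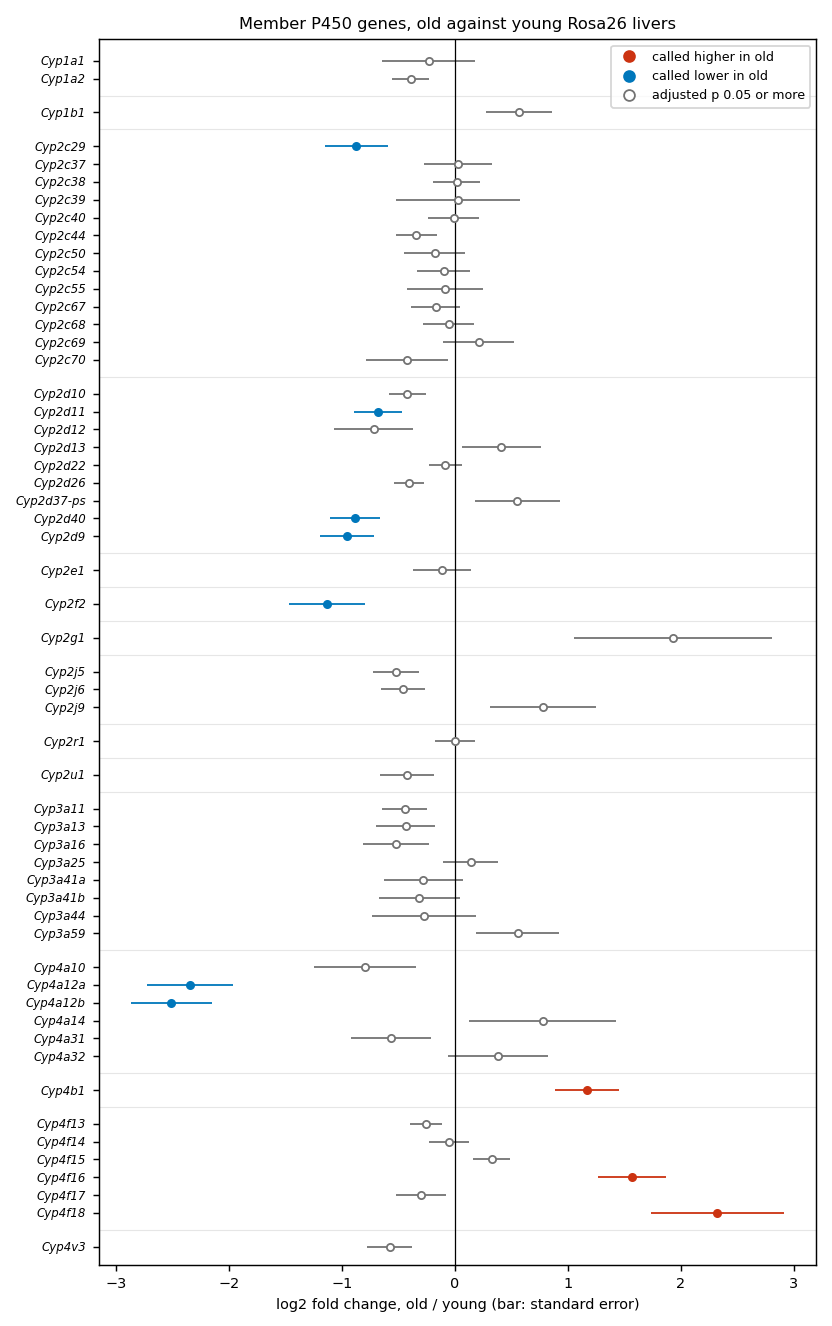
Log2 fold change of each of the 55 P450 genes between 3 old and 3 young Rosa26 livers (x axis, bar: standard error), grouped by subfamily, with filled points at an adjusted p under 0.05. The 7 genes called lower lie in the Cyp2c, Cyp2d, Cyp2f and Cyp4a groups, and the 3 called higher are Cyp4b1, Cyp4f16 and Cyp4f18.

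The steepest fall was that of Cyp4a12a and Cyp4a12b, neighbouring genes on chromosome 4 for male-predominant hydroxylases that turn arachidonic acid into a vasoactive hydroxy acid. On GRCm38, GENCODE M21 places Cyp4a12a (ENSMUSG00000066071.6) at 115299046 to 115332815 and Cyp4a12b (ENSMUSG00000078597.2) at 115411624 to 115439034, both on the plus strand. The coding sequences share 98.491% of their bases, 1501 of 1524, so a read of 75 bases often cannot be assigned to either gene. Only 59.2% of such windows in the Cyp4a12a transcript, and 58.7% in that of Cyp4a12b, occur in no other gene. The windows take each read singly, whereas fragments were read from both ends. The stretch from coding base 676 to 750, a single read in length, shows where the copies can be told apart, with the 6 bases that differ in capitals (chr4:115326674-115326748 and chr4:115432927-115433001, plus strand, GENCODE M21 transcripts).
Cyp4a12a: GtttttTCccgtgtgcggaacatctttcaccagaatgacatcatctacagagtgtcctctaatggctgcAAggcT
Cyp4a12b: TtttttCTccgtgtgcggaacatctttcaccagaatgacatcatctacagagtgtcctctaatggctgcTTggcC

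Cyp4a12a had 478, 715 and 594 CPM in young livers and 192, 61.3 and 98.2 CPM in old controls. Guide 4 livers had 156 and 199 CPM, and guide 2 livers 248 and 293 CPM. Every old liver, labelled Cd44-KO or control, was below every young one. The log2 fold change with age was -2.34 (SE 0.38, adjusted p 0.00772). Cyp4a12b had 253, 284 and 320 CPM in young, 71.7, 30.3 and 48.6 CPM in old control, 51.4 and 59.7 CPM in guide 4 and 101 and 115 CPM in guide 2 livers. Its log2 fold change was -2.51 (SE 0.36, adjusted p 0.00667), again with no overlap between young livers and any of the older ones. Both were called in all 13 alternatives, with adjusted p up to 0.0413 for Cyp4a12a and 0.0392 for Cyp4a12b. The sum of both genes does not depend on how reads were split between them. It was 731, 999 and 914 CPM in young and 264, 91.6 and 147 CPM in old control livers, a ratio of group means of 0.19.

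**Figure D2:**
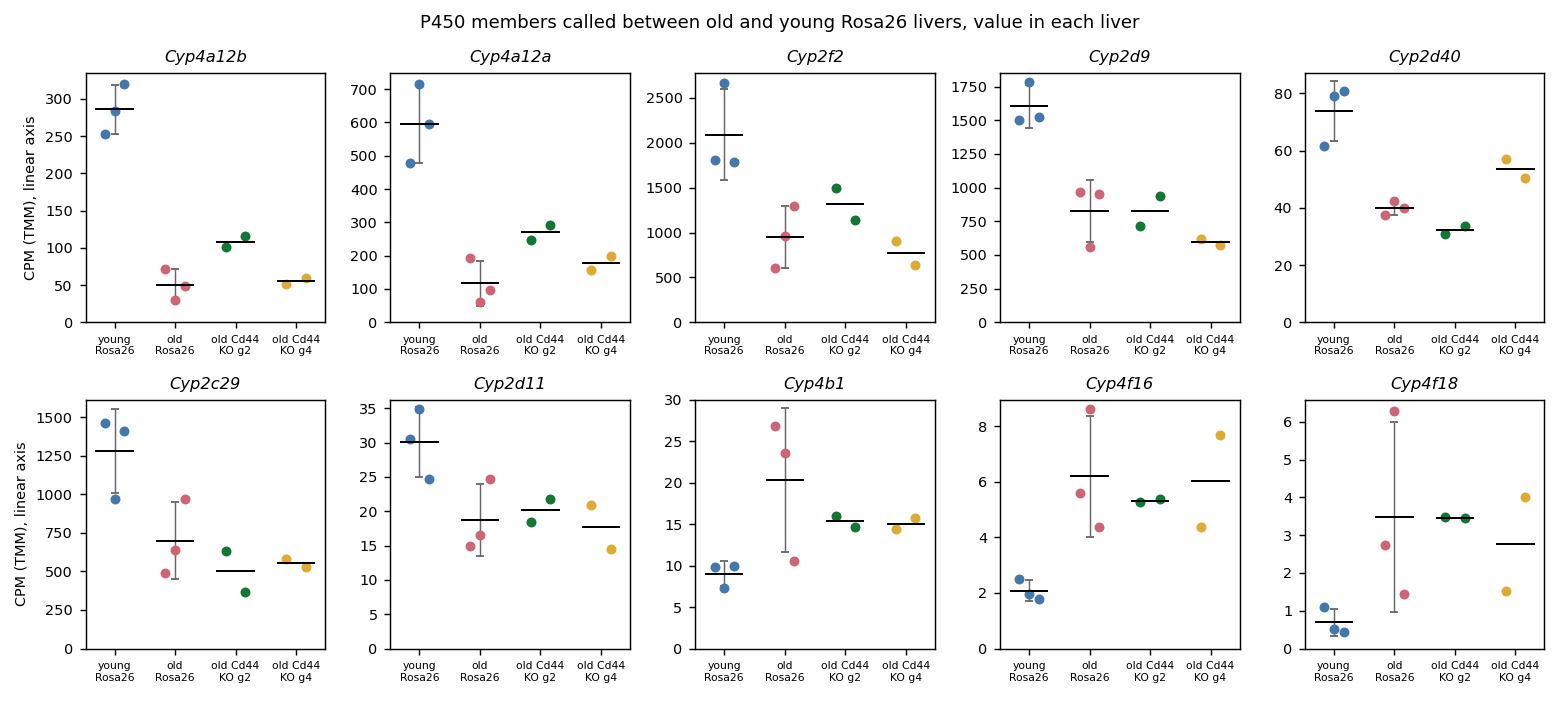
CPM of the 10 P450 genes called between old and young Rosa26 livers in each of the 10 livers (points, linear axes from 0), with the group mean (line) and, for groups of 3, its SD (bar). Old and young livers are apart for all except Cyp2c29, whose highest old liver, at 973 CPM, lies above the lowest young one, at 967 CPM.

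The other Cyp4a genes lie beside them on chromosome 4 and did not pass the test. Cyp4a10, a Ppara-inducible fatty acid hydroxylase, had 123, 49.2 and 179 CPM in young and 69.4, 66.6 and 66.4 CPM in old control livers (log2 fold change -0.80, SE 0.45, adjusted p 0.22). Cyp4a14, its inducible neighbour, had 65.4, 29.9 and 99.02 CPM against 76.2, 89.7 and 167 CPM (log2 fold change 0.78, SE 0.65, adjusted p 0.405). Within young livers the Cyp4a14 count was 0.53, 0.61 and 0.55 times that of Cyp4a10, although both levels varied widely. In old controls the ratio was 1.098, 1.35 and 2.51, above every young liver, and guide 4 livers had 2.33 and 1.65. Guide 2 livers had 1.09 and 0.60, the latter within the young range. The ratio is a description with no test, and neither gene was called. Cyp4a31 and Cyp4a32, which share 96.6% and 97.2% of coding bases with Cyp4a10, had log2 fold changes of -0.57 and 0.38 (adjusted p 0.258 and 0.551).

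**Figure D3:**
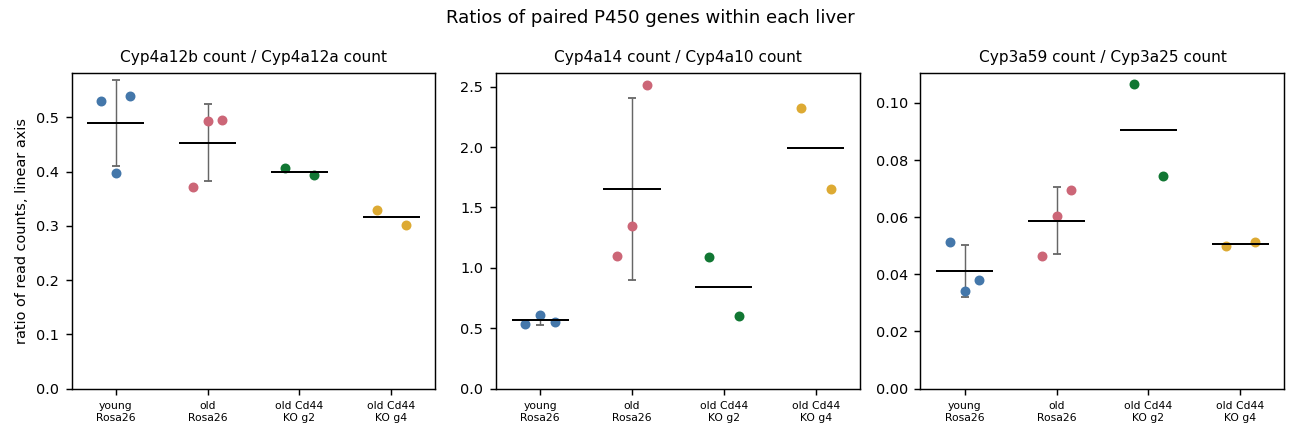
Ratio of read counts of neighbouring P450 genes within each liver (y axis, linear from 0), with the group mean (line) and, for groups of 3, its SD (bar). The Cyp4a14 to Cyp4a10 ratio was 0.53 to 0.61 in young livers and 1.098 to 2.51 in old controls, while the Cyp4a12b to Cyp4a12a ratio was between 0.30 and 0.54 in all 10. The ratios were not tested.

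Genes that respond to Ppara outside the P450 family were examined beside the Cyp4a genes. Over all genes, 8.66% fell with age and 14.1% rose. Of the 18 Ppara-responsive genes tested, 8 fell and none rose, with a median log2 fold change of -0.63 against 0.04 over all genes. They included Angptl4, an inhibitor of lipoprotein lipase, which had 164, 227 and 152 CPM in young and 59.2, 47.3 and 57.8 CPM in old control livers (log2 fold change -1.73, SE 0.28, adjusted p 0.00772). Acot1, an acyl-CoA thioesterase, fell by 1.51 on the log2 scale (SE 0.38, adjusted p 0.0203). Plin2, Pex11a, Slc25a20 and Ehhadh also fell. Ppara itself had a log2 fold change of -0.07 (SE 0.20, adjusted p 0.831).

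Several other fatty acid and eicosanoid enzymes did not pass the test. Cyp4v3, a fatty acid hydroxylase on chromosome 8, had 369, 489 and 404 CPM in young and 234, 230 and 380 CPM in old control livers (log2 fold change -0.58, SE 0.20, adjusted p 0.0554). Without old control replicate 3 its value was -0.86 (adjusted p 0.00307), but with another liver left out the adjusted p by edgeR reached 0.193. Cyp2j5, an arachidonic acid epoxygenase of liver and kidney, had 598, 572 and 557 CPM against 305, 360 and 539 CPM (log2 fold change -0.52, SE 0.20, adjusted p 0.0859). All 3 old values were below all young ones, and without old control replicate 3 the value was -0.79 (adjusted p 0.00533). With another liver left out, the adjusted p of Cyp2j5 by edgeR reached 0.235. Cyp2j6 was lower in every old control too (-0.46, SE 0.19, adjusted p 0.103), while Cyp2j9 overlapped (0.78, SE 0.47, adjusted p 0.243). Cyp2u1, a hydroxylase of long-chain fatty acids, had 10.9 to 11.3 CPM in young and 6.43 to 9.88 CPM in old control livers (-0.43, SE 0.24, adjusted p 0.209). Cyp4f14, which hydroxylates vitamin E, had 218 to 228 CPM in young and 155 to 267 CPM in old control livers (-0.05, SE 0.18, adjusted p 0.854).

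The 3 genes that rose are among the scarcer of the Cyp4 genes. Per kilobase of transcript, the mean over all livers was 7.87 CPM for Cyp4b1, 2.12 for Cyp4f16 and 1.47 for Cyp4f18, against 125 for Cyp4a12a and 90.4 for Cyp4f14. Cyp4f18, which inactivates leukotriene B in neutrophils, had 1.102, 0.53 and 0.44 CPM in young and 2.75, 6.29 and 1.43 CPM in old control livers (log2 fold change 2.32, SE 0.59, adjusted p 0.021). It lies on chromosome 8 (71988482 to 72009626), away from the other Cyp4f genes on chromosome 17. Cyp4f16 had 2.51, 1.98 and 1.77 CPM against 5.60, 8.62 and 4.39 CPM (1.57, SE 0.30, adjusted p 0.00984), and it was called in 12 of 13 alternatives. Cyp4b1, an enzyme best known from lung, had 9.85, 7.32 and 9.95 CPM against 26.8, 23.6 and 10.5 CPM (1.17, SE 0.28, adjusted p 0.0176). For each of the 3 genes every old control was above every young liver.

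Markers of other liver cells moved in the same livers, where 14.1% of all genes were called higher with age and 8.66% lower. The summed level of 9 macrophage markers was 224 to 340 CPM in young livers and 418, 1577 and 892 CPM in old control replicates 1 to 3, with 7 of 9 called higher. Of 7 neutrophil markers, 5 were tested and 4 rose, with sums of 3.67 to 9.73 CPM in young and 15.9, 257 and 14.3 CPM in old controls. Cyp4f18 and Cyp4f16 were highest in old control replicate 2, as were those sums, whereas Cyp4b1 was highest in replicate 1. Endothelial markers summed to 165 to 229 CPM in young and 336 to 372 CPM in old controls (6 of 8 rose), and stellate cell markers to 166 to 270 and 334 to 491 CPM (5 of 8 rose). T and NK cell markers and B and plasma cell markers rose for 4 of 5 tested each, cholangiocyte markers for 0 of 5 and hepatocyte markers for 0 of 9. None of the defining markers was at 0 in all livers, and the part of these cells in the P450 values was not tested. In whole liver, fewer cells of a type and less RNA per cell cannot be told apart.

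The calls for Cyp4f18 and Cyp4b1 depended on single livers. Without old control replicate 2 Cyp4f18 had a log2 fold change of 1.58 (adjusted p 0.0827), and the call was also lost without young replicate 2 or 3 (adjusted p 0.0874 and 0.0708). Cyp4b1 lost its call without young replicate 2 or old control replicate 2 (adjusted p 0.0809 and 0.064), and Cyp4f16 without young replicate 2 (adjusted p 0.0517).

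Among the enzymes of foreign compounds, Cyp2f2, known for activating naphthalene and for its periportal expression in mouse liver, was one of the most abundant. Per kilobase, the mean level was 2572 CPM for Cyp2e1, 1275 for Cyp3a11 and 713 for Cyp2f2. Cyp2f2 had 1811, 2672 and 1790 CPM in young and 603, 959 and 1298 CPM in old control livers, with no overlap (log2 fold change -1.13, SE 0.34, adjusted p 0.0350). The call was lost without any 1 of young replicates 1 to 3 or old control replicates 1 and 2, with adjusted p of 0.0599, 0.134, 0.061, 0.0815 and 0.101. Cyp2c29, an inducible epoxygenase, was the 1 called gene of the 13 Cyp2c genes. It had 1465, 967 and 1414 CPM against 487, 639 and 973 CPM, and the groups overlapped (-0.87, SE 0.28, adjusted p 0.0436). Its adjusted p was 0.104 to 0.134 when young replicates 1 or 3 or old control replicates 1 or 2 were left out and 0.0656 without young replicate 2.

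The Cyp2d cluster spans 82370527 to 82794294 on chromosome 15 and holds 9 of the genes, of which 3 fell, 7 had values below 0 and 6 were lower in every old control than in any young liver. Over all genes, 8.66% were called lower, and 18% were lower in every old control than in any young liver. Cyp2d9, a male-biased testosterone hydroxylase, had 1499, 1789 and 1526 CPM in young and 967, 560 and 955 CPM in old control livers (log2 fold change -0.96, SE 0.24, adjusted p 0.0200). Cyp2d40 had 61.7, 79.0 and 80.9 CPM against 37.6, 42.3 and 40.1 CPM (-0.89, SE 0.22, adjusted p 0.0193). Cyp2d11 had 30.5, 35.0 and 24.8 CPM against 14.9, 16.5 and 24.7 CPM (-0.68, SE 0.21, adjusted p 0.0421). Its highest old liver lay just under the lowest young one. Of the read-length windows in the Cyp2d11 transcript, 21.9% also occur in other genes, among them Cyp2d10 and Cyp2d9. Both of these were far more abundant and lower in every old control. Whether their reads had a part in the Cyp2d11 counts was not tested. Cyp2d26 narrowly missed the threshold, at 978, 1016 and 1031 CPM against 780, 709 and 791 CPM (-0.41, SE 0.14, adjusted p 0.0502). Cyp2d10 (-0.42, SE 0.16, adjusted p 0.0809) and Cyp2d12 (-0.72, SE 0.35, adjusted p 0.151) were lower in every old control too. Cyp2d22 was level (-0.09, SE 0.15), and Cyp2d13 and Cyp2d37-ps, both annotated as transcribed pseudogenes, had values above 0 (0.41, SE 0.35, and 0.55, SE 0.38) with overlapping groups.

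These 3 calls depended on single livers. Cyp2d9 lost its call without young replicate 2 or old control replicate 2 (adjusted p 0.0785 and 0.0648), and Cyp2d40 without young replicate 2 or 3 or old control replicate 2 (0.0744, 0.0603 and 0.0556). Cyp2d11 lost it without any 1 of the control livers other than old control replicate 3 (0.0515 to 0.155).

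Bases before the start of Cyp2d11 and Cyp2d40, which fell, and of Cyp2d10, which did not pass the test, are shown to compare them. RefSeq (GRCm38.p6) gave a start for 41 of the 55 genes, among them 5 Cyp2d genes. Each of the 5 holds TTTATA on the gene's strand within 250 bases before its start. This is the reverse complement of the TATA box letters TATAAA, which thus match on the opposite strand. The 30 bases around the match are printed for 3 of them with TTTATA in capitals (Cyp2d11 chr15:82394053-82394082, Cyp2d40 chr15:82764201-82764230 and Cyp2d10 chr15:82407213-82407242, minus strand). In Cyp2d9 and Cyp2d26 the match lies within an exon of GENCODE M21, which starts these genes further upstream, and is not printed.
Cyp2d11: ggcaaccctggcactccTTTATAaggtggc
Cyp2d40: ggcaacctggacactccTTTATAaggtggt
Cyp2d10: ggcaaccctggcactccTTTATAaggcagc

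Against Cyp2d11, the stretch differs at 1 base in Cyp2d9, 2 in Cyp2d10, 4 in Cyp2d40 and 14 in Cyp2d26. Over the 250 bases before their starts, Cyp2d11 shared 93.6% of aligned bases with Cyp2d9, 85.5% with Cyp2d10, 80.7% with Cyp2d40 and 65.0% with Cyp2d26. The match begins 28 bases before the RefSeq start in Cyp2d9, 31 in Cyp2d10 and Cyp2d26, 43 in Cyp2d11 and 91 in Cyp2d40. Cyp2d11 holds a second match at 16, there as TATAAA on the gene's strand. GENCODE M21 places the start of Cyp2d40 further upstream too. Searched on both strands, TATAAA occurred before 20 of the 41 P450 genes with a RefSeq start and in 12.4% of all 32851 windows of that length. The nuclear receptor half-site AGGTCA occurred in 9 of the 41 (14.0% of all windows), the Ahr core GCGTG in 7 (28.2%) and the STAT palindrome TTCNNNGAA in 2 (7.02%). A match describes letters only. Starts for Cyp4a12a and Cyp4a12b were not used here.

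Cyp3a11, the main mouse Cyp3a enzyme and a PXR target, had 3951, 3264 and 2667 CPM in young and 2391, 2478 and 2384 CPM in old control livers. All old values lay below all young ones, yet the difference did not pass the test (log2 fold change -0.45, SE 0.20, adjusted p 0.122). None of the other 7 Cyp3a genes was called. Cyp3a13 had 220, 210 and 199 CPM against 111, 115 and 239 CPM (-0.44, SE 0.26, adjusted p 0.242), and without old control replicate 3 its value was -0.89 (adjusted p 0.00323). Its adjusted p by edgeR reached 0.549 with another liver left out. Cyp3a25 had 634, 519 and 465 CPM against 852, 482 and 447 CPM (0.14, SE 0.24, adjusted p 0.705), and its sign turned without old control replicate 1 (-0.22). Cyp3a41a and Cyp3a41b, female-predominant genes that differ at 2 of 1512 coding bases, had low levels in these males, with 4.82 to 11.9 and 2.65 to 6.53 CPM over the young and old control livers. Taken singly, their reads can hardly be told apart, since 4.73% and 9.10% of 75-base windows are their own.

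Cyp1a2, a pericentral Ahr target that oxidises caffeine, had 638, 713 and 565 CPM in young and 434, 439 and 587 CPM in old control livers (log2 fold change -0.39, SE 0.17, adjusted p 0.107). Without old control replicate 3 it was called (-0.55, adjusted p 0.0171), but with another liver left out its adjusted p by edgeR reached 0.298. Cyp1a1 and Cyp1b1 were scarce, at most 3.62 and 3.29 CPM in any liver. Cyp2e1, the pericentral enzyme of ethanol and the most abundant member per kilobase, had 6445, 4486 and 5892 CPM against 3946, 4047 and 7546 CPM (-0.11, SE 0.25, adjusted p 0.77). Without old control replicate 3 the Cyp2e1 value was -0.49 (adjusted p 0.0496), and with another liver left out its adjusted p by edgeR reached 0.991. Old control replicate 3 was the highest of all livers for Cyp2e1. Of the Cyp2c genes, 9 of 13 were likewise highest there, among them Cyp2c37, Cyp2c50 and Cyp2c54. Cyp2c70, which makes the muricholic acids of rodents, ranged from 646 to 741 CPM in young livers and was at 231, 468 and 887 CPM in the old controls (-0.42, SE 0.36, adjusted p 0.417). Cyp2r1, a vitamin D hydroxylase, had 15.1 to 16.03 CPM in young and 13.03 to 18.5 CPM in old control livers (-0.00, SE 0.18, adjusted p 0.992).

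Cyp2g1, an enzyme of the olfactory epithelium, was near the detection floor in young livers, with 0.98, 0.26 and 0.25 CPM. Old controls had 1.28, 3.01 and 1.53 CPM, all above the young values (log2 fold change 1.93, SE 0.88, adjusted p 0.129).

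Summed over a subfamily, which removes any shift of reads among its own copies, levels in old controls were 0.35 times the young mean for Cyp4a, 0.46 for Cyp2f, 0.67 for Cyp4v, 0.70 for Cyp2d, 0.71 for Cyp2j, 0.74 for Cyp2u, 0.76 for Cyp1a, 0.78 for Cyp2c, 0.79 for Cyp3a, 0.92 for Cyp2e and 0.998 for Cyp2r. The Cyp4f sum was 1.03 times the young mean, Cyp1b 1.48, Cyp4b 2.25 and Cyp2g 3.88. Within Cyp4a, the sum of Cyp4a12a and Cyp4a12b was 0.19 times the young mean, and that of Cyp4a10 and Cyp4a14 was 0.98 times. These ratios are descriptions with no test. They rest on TMM factors, and total counts in their place moved the median log2 fold change of all genes up by 0.31. As a share of all counts, the 55 genes took a mean of 2.06% in young and 1.90% in old control livers (SD 0.106 and 0.252, n = 3 each). The Cyp4a sum had 1090 ± 139 CPM in young (SD, n = 3) and 377 ± 99.6 CPM in old control livers (SD, n = 3). The Cyp2d sum had 4274 ± 315 against 2991 ± 502 CPM and the Cyp4f sum 435 ± 6.88 against 448 ± 33.6 CPM (SD, n = 3 each). The Cyp2c sum had 4599 ± 243 against 3600 ± 1462 CPM (SD, n = 3 each), a spread that came mostly from old control replicate 3, at 5221 CPM.

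**Figure D4:**
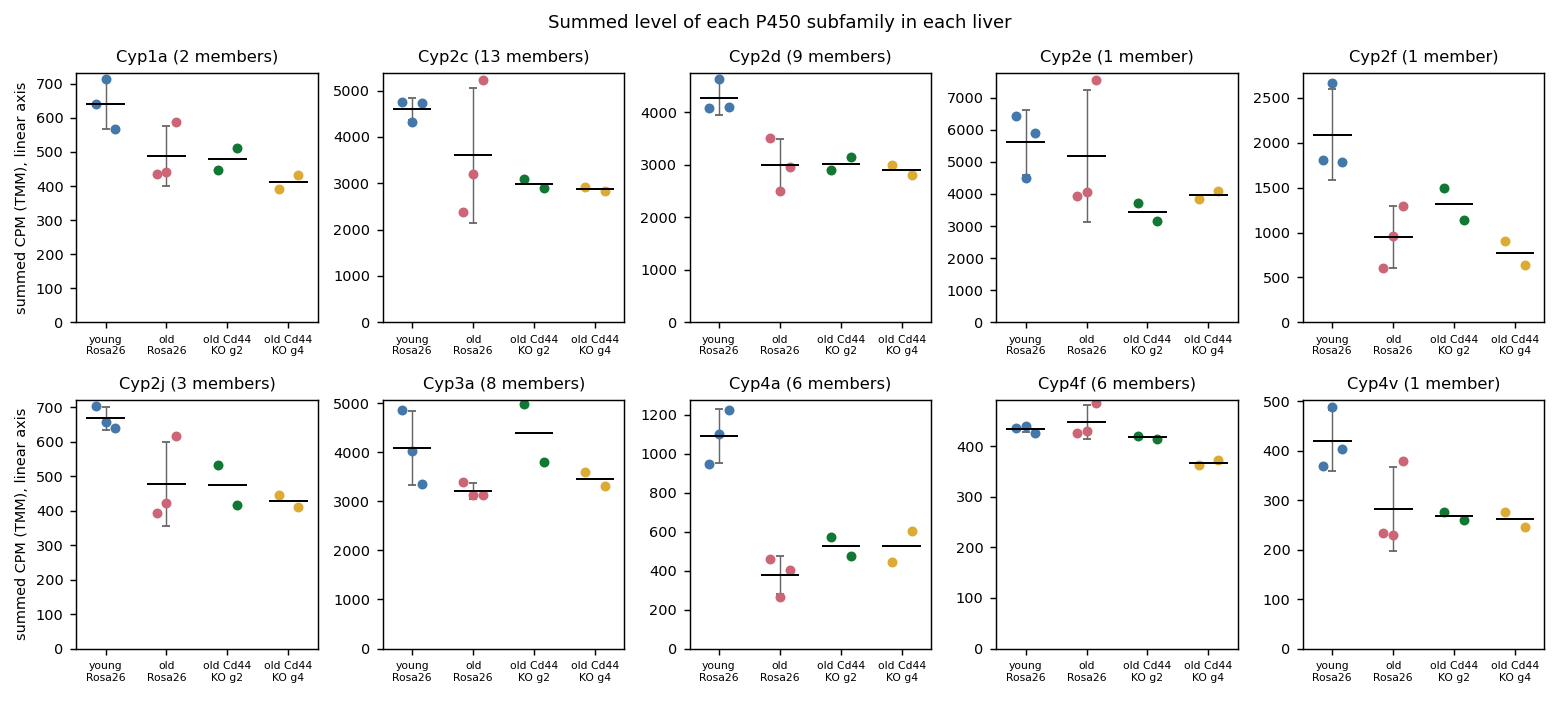
Summed CPM of the members of 10 P450 subfamilies in each liver (points, linear axes from 0), with the group mean (line) and, for groups of 3, its SD (bar). The Cyp4a sum was 946 to 1224 CPM in young livers and 266 to 603 CPM in all others.

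Genes that act with these enzymes or control them were tested one by one and counted by list. The shares of all genes called with age were 14.1% higher and 8.66% lower. Of 7 redox partners, the haem-binding protein Pgrmc1 fell (log2 fold change -0.69, SE 0.16, adjusted p 0.0145), and the reductase Por had -0.19 (SE 0.22, adjusted p 0.558). Of 13 genes of haem synthesis and breakdown, Ppox rose (0.69, SE 0.23, adjusted p 0.0492) and Alas2 fell (-0.75, SE 0.20, adjusted p 0.0247). The liver's rate-limiting enzyme Alas1 had 557, 727 and 879 CPM in young and 64.4, 155 and 508 CPM in old control livers, all below the young range, but did not pass the test (-1.57, SE 0.62, adjusted p 0.0879). Of 24 receptors and factors tested out of 26, 4 fell and 1 rose. Those that fell included the hepatocyte factors Foxa3 (-1.11), Hnf4a (-0.96) and Cebpb (-0.77), and the clock output factor Dbp rose (2.18), with adjusted p of 0.00936, 0.0147, 0.0235 and 0.0263. The receptors PXR (Nr1i2, -0.20, SE 0.15), CAR (Nr1i3, 0.44, SE 0.29) and Ahr (-0.13, SE 0.23) were not called. Of 15 PXR and CAR targets outside the P450 family, 4 fell (Gsta1, Gstm1, Aldh1a1 and Ces2a) and 1 rose (Slco1a4). None of 3 Ahr targets tested was called. Of 11 P450 genes of sterol, bile acid, retinoid and steroid metabolism, which are no members, Cyp7b1 fell (-1.34, SE 0.35, adjusted p 0.0242).

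Between Cd44-KO livers of both guides and old controls, no P450 gene passed the test, nor did any of the 13909 genes (0%). At an unadjusted p under 0.05 there were 2 of the 55 P450 genes and 6.59% of all genes, and DESeq2 called 0 of the 55. The 2 were Cyp4a12a (log2 fold change 0.93, SE 0.35, p 0.0206, adjusted p 0.744 by edgeR) and Cyp1b1 (-0.64, SE 0.27, p 0.0367, adjusted p 0.748 by edgeR). Cyp1b1, an enzyme of estradiol and procarcinogens, had 1.69 to 2.21 CPM in the knockouts and 2.86 to 3.29 CPM in the old controls, without overlap. Next by p came Cyp4a12b (0.70, SE 0.32), Cyp3a11 (0.40, SE 0.19) and Cyp2c54 (-0.45, SE 0.22), each with an adjusted p of 0.748 to 0.75 in edgeR. The Cyp2c54 value was -0.09 without old control replicate 3 and -0.65 without replicate 1. Cyp3a11 levels were 2847 and 2694 CPM in guide 4 and 4140 and 3077 CPM in guide 2 livers, all above the old controls at 2384 to 2478 CPM. Groups did not overlap for 1 higher and 1 lower P450 gene, against 6.1% of all genes (2.84% higher and 3.26% lower). Among sums, Cyp4a was 1.39 times, Cyp3a 1.22 times and Cyp2e 0.71 times the old control mean. Cyp2e1 had 3147 to 4096 CPM in the 4 knockout livers, near old control replicates 1 and 2, at 3946 and 4047 CPM, and below replicate 3. Without old control replicate 1 or 2 the value for Cyp4a12a was 1.49 and 0.62. Marker sums in the knockout livers were 343 to 744 CPM for macrophages, 228 to 282 CPM for endothelium, 275 to 317 CPM for stellate cells and 7.73 to 21.6 CPM for neutrophils, and their part in the P450 values was not tested.

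Guide by guide, no P450 gene passed edgeR's test against old controls. With guide 2, 7 of 55 had an unadjusted p under 0.05, against 7.04% of all genes, of which 3 (0.0216%) passed the adjusted threshold. Cyp4a12b was the first of them, at 101 and 115 CPM against 71.7, 30.3 and 48.6 CPM in old controls (log2 fold change 1.11, SE 0.28, p 0.00289, adjusted p 0.376 by edgeR). DESeq2 called it, with an adjusted p of 0.0287. Cyp4a12a (1.21, SE 0.38), Cyp2g1 (1.51, SE 0.53), Cyp3a11 (0.58, SE 0.20) and Cyp2r1 (0.43, SE 0.17) followed, each with both guide 2 livers above all old controls. In all, guide 2 livers and old controls did not overlap for 9 higher and 4 lower P450 genes, against 19.6% of all genes (9.56% higher and 10% lower). With guide 4, 1 of 55 had an unadjusted p under 0.05 and 3.91% of all genes, none of which passed the adjusted threshold (0%). It was Cyp2d40, at 57.1 and 50.4 CPM against 37.6 to 42.3 CPM (0.43, SE 0.15, p 0.0163, adjusted p 0.98 by edgeR). Cyp2c54 (-0.57, SE 0.27), Cyp1b1 (-0.69, SE 0.35), Cyp2d9 (-0.47, SE 0.25) and Cyp4f14 (-0.38, SE 0.20) came next, all with an adjusted p of 0.98. Without old control replicate 3 the values were -0.21 for Cyp2c54 and -0.19 for Cyp4f14, and without replicate 1 they were -0.77 and -0.57. DESeq2 called 0 P450 genes with guide 4. Groups did not overlap for 2 higher and 4 lower P450 genes, against 14.8% of all genes (7.05% higher and 7.79% lower).

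The direct comparison of guide 4 with guide 2, with 2 livers on each side, gave no call among the P450 genes in edgeR's test and 0.0216% over all genes. At an unadjusted p under 0.05 there were 9 of 55 and 4.34% of all genes. Cyp2d40 was higher with guide 4, at 57.1 and 50.4 CPM against 31.0 and 33.7 CPM (log2 fold change 0.73, SE 0.17, p 0.00122, adjusted p 0.377 by edgeR). Cyp2g1 was lower, at 0.52 and 1.35 CPM against 5.46 and 5.66 CPM (-2.53, SE 0.63, p 0.0024, adjusted p 0.458 by edgeR). DESeq2 called these 2 genes, with adjusted p of 0.0309 and 0.0314. Cyp3a59 (-1.09, SE 0.33), Cyp4a12b (-0.96, SE 0.32) and Cyp2c44 (-0.50, SE 0.17) followed, each lower in both guide 4 livers (adjusted p 0.681, 0.841 and 0.898 by edgeR). Cyp4a14 levels were 154 and 191 CPM in guide 4 and 96.8 and 19.5 CPM in guide 2 livers (1.57, SE 0.70, adjusted p 1 by edgeR). Of the 55 genes, 37 had values below 0, with a median of -0.16 against 0.00 over all genes. The 2 livers of each guide did not overlap for 7 higher and 23 lower P450 genes, against 38.6% of all genes (18.1% higher and 20.4% lower).

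Of the 15 PXR and CAR targets outside the family, 6 had an unadjusted p under 0.05 in the comparison of guides, against 4.34% of all genes. All 6 had lower values with guide 4, and 0 of the 15 passed the adjusted threshold. Gstm3, a glutathione transferase, had 177 and 155 CPM in guide 4 and 759 and 485 CPM in guide 2 livers (log2 fold change -1.91, SE 0.39, adjusted p 0.281 by edgeR). Gsta1 had 51.2 and 51.7 CPM against 199 and 153 CPM (-1.77, SE 0.37, adjusted p 0.281 by edgeR). Of the 3 Ahr targets tested, 1 had an unadjusted p under 0.05. The median log2 fold change of the 3 was -0.03 and the highest value 0.08. The 1 gene was the quinone reductase Nqo1, with 10.6 and 15.6 CPM against 38.8 and 30.2 CPM (-1.39, SE 0.27, adjusted p 0.25 by edgeR).

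**Figure D5:**
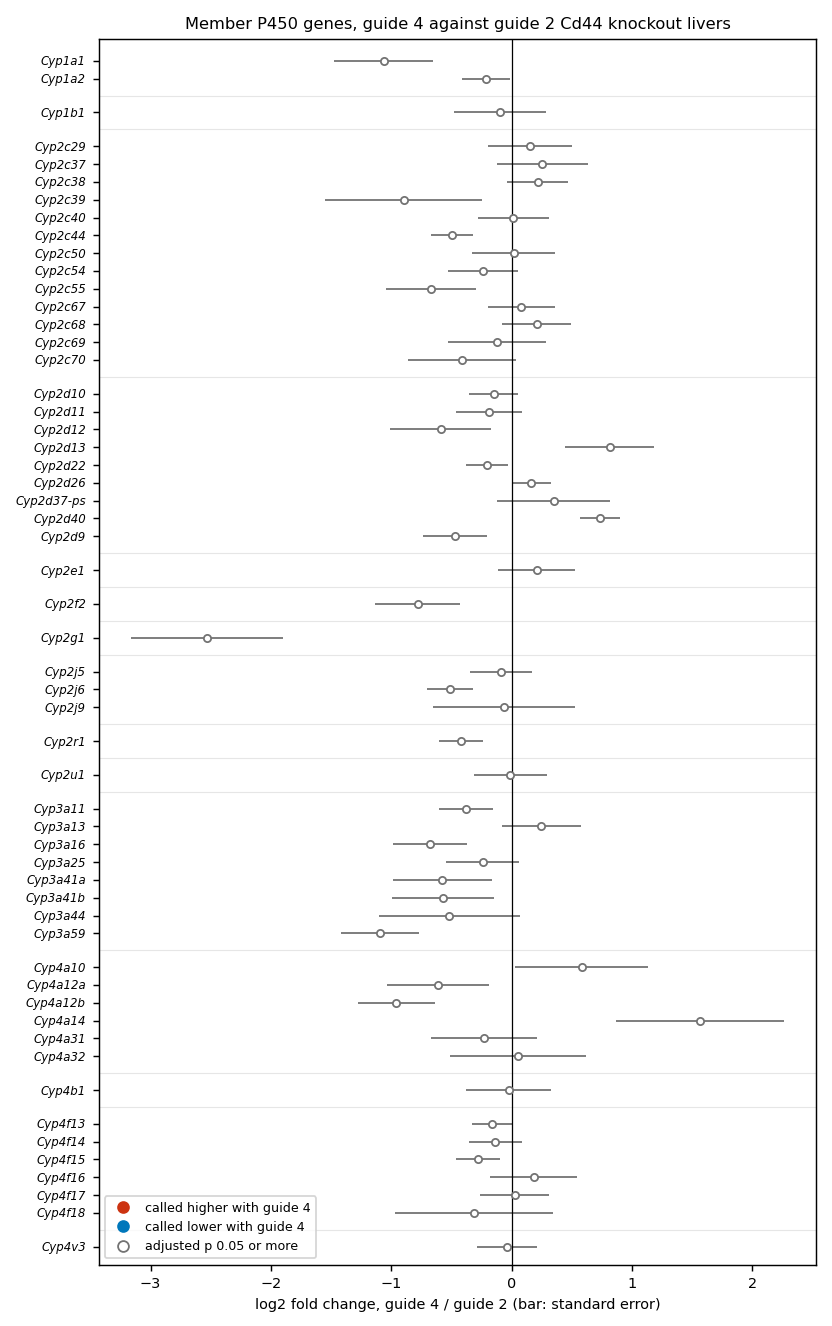
Log2 fold change of each of the 55 P450 genes between 2 guide 4 and 2 guide 2 Cd44-KO livers (x axis, bar: standard error), grouped by subfamily. No gene is filled, since none had an adjusted p under 0.05, and 37 of the 55 values lie below 0.

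Against young livers, the Cd44-KO livers had 9 of 55 P450 genes called (16.4%), 2 higher and 7 lower, where 11.6% of all genes were called, 6.64% higher and 4.97% lower. At an unadjusted p under 0.05 there were 25 of 55 and 33.3% of all genes. Groups did not overlap for 3 higher and 21 lower P450 genes, against 40% of all genes (21.1% higher and 18.8% lower). This comparison shares its young livers with that of old controls, so the values are given side by side and are no second observation. Cyp4a12b had a log2 fold change of -1.81 here (SE 0.32, adjusted p 0.0131) and -2.51 in old controls, and Cyp4a12a had -1.41 (SE 0.34, adjusted p 0.0291) and -2.34. Cyp2c29 had -1.28 (SE 0.26, adjusted p 0.0187) and -0.87, Cyp2d9 -1.17 (SE 0.22, adjusted p 0.0160) and -0.96, and Cyp2d40 -0.78 (SE 0.20, adjusted p 0.0357) and -0.89. Cyp4f16 had 1.44 (SE 0.29, adjusted p 0.0189) and 1.57, and Cyp4f18 had 2.16 (SE 0.57, adjusted p 0.0363) and 2.32. Cyp4v3 (-0.67, SE 0.18, adjusted p 0.0409) and Cyp1a2 (-0.52, SE 0.15, adjusted p 0.0499) were called here and not in old controls, and the direct test of knockout against old control gave adjusted p of 0.942 and 0.893 for them. Both calls were lost whichever of the 7 livers was left out (adjusted p 0.0555 to 0.167 for Cyp4v3 and 0.0753 to 0.186 for Cyp1a2). Cyp2f2 (-1.001, SE 0.31, adjusted p 0.0565), Cyp2d11 (-0.67, SE 0.20, adjusted p 0.0512) and Cyp4b1 (0.75, SE 0.27, adjusted p 0.0836) were not called here.

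With total counts in place of TMM factors the split was 7 higher and 4 lower. No P450 gene was called without young replicate 2 or without young replicate 3, and 3 were called without young replicate 1 or without guide 2 replicate 2. There were 4 without guide 4 replicate 2 or without guide 2 replicate 1. Shares of all genes called in these alternatives are not reported here.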

How the data were processed

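Whole-liver RNA of 10 male mice was analysed. Per the labels' protocols, polyadenylated RNA went into Watchmaker mRNA libraries, read from both ends over 75 bases. The authors deposited raw counts per gene symbol, whole numbers with no normalization. The submitters' processing notes name FastQC 0.11.8, Trim Galore 0.4.4, STAR 2.5.3a, HOMER and the build mm10. Neither the gene models nor the strand setting of the counting is given in the sources used here, so reads of near-identical or overlapping genes may have been split or dropped.

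Counts were tested with edgeR 4.0.16 in R 4.3.3 (quasi-likelihood test, TMM factors, filterByExpr with a minimum count of 10 and total of 15, 13909 genes), in a fit of all 10 livers with 1 coefficient for young, old control and old knockout, and in a second fit with a coefficient for each guide. Benjamini-Hochberg adjustment ran over all genes tested, and an adjusted p under 0.05 was called. The standard error is the log2 fold change divided by the square root of F. Levels are CPM with TMM factors. A count of 3, taken as the floor, is 0.131 to 0.198 CPM, for counting error only, as the reads carry no molecular identifiers. Livers were taken as separate replicates as labelled. Nothing says how they were raised or housed, so p-values measure the spread between these samples. No pair of livers within a group agreed within sampling noise (chi-square per degree of freedom of at least 16.9). Replicates are numbered in accession order.

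Members and lists were chosen with earlier results of these data known. Named are the called members of each comparison, the 5 with the smallest p where under 3 were called, the leading member of each subfamily per kilobase, a fixed set of well-known members and called list genes, some of which are not reported here. Transcript length is that of the longest protein-coding GENCODE M21 transcript. Positions matched for 54 of 55 members there or through a RefSeq synonym. Alternatives were DESeq2's size factors, total counts, DESeq2 1.42.0, limma voom 3.58.1, no filter, only the groups compared, guides fitted separately and leaving out each liver. Total counts were added after the data were seen. The test was tested on simulated data.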

Additional observations from a re-analysis of the deposited data

How the results depend on the processing

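The number of P450 genes called between old and young livers was 10, and 4 when only these groups entered the fit. It ranged from 2 (without young replicate 2) to 22 (without old control replicate 3) when each liver was left out. Between knockout and young livers 9 were called, 15 by DESeq2 and 24 when only these groups entered the fit, and 0 to 8 with a liver left out. Against old controls guide 2 had 0 calls by edgeR and 1 by DESeq2, and guide 4 against guide 2 had 0 and 2. For knockout and for guide 4 against old controls, all alternatives run gave 0. Shares of all genes called in the alternatives are not reported here, so these counts do not set P450 genes apart from other genes. With total counts, which moved the median of all genes by 0.31, the P450 log2 fold changes above 0 with age went from 17 to 32. Those that turned included Cyp2e1 (0.16), Cyp2r1 (0.29) and Cyp4f14 (0.24). The fit of only these groups turned Cyp2r1 (0.0027). With a liver left out the range was -0.49 to 0.045 for Cyp2e1, -0.15 to 0.11 for Cyp2r1, -0.22 to 0.30 for Cyp3a25 and -0.24 to 0.13 for Cyp4f14. Cyp4a12a and Cyp4a12b were called with age in all 13 alternatives. The cause of the other shifts was not tested. No paired analysis was run, as the groups hold different mice and the labels give no pairing between them.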
